A study of Locusta migratoria with 12 samples.

Results

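miR-277, miR-34 and miR-317 are microRNAs of arthropods whose hairpins lie next to each other in the genome of Drosophila melanogaster and are cut from a common primary transcript there. They were followed in the fat body of adult female migratory locusts (Locusta migratoria) over the first days of adult life. Per miRNA, the row with the most counts over the 12 libraries was taken among the rows named after an arthropod, which gave 3 rows out of 26711 in the table, or 3 of the 102 miRNAs left after repeated rows were joined. The choice of row used total abundance and no difference between ages, but the 3 miRNAs themselves were chosen with earlier results of these data known. Small RNA was sequenced at 0, 2, 4 and 6 days after eclosion, when the adult leaves the last nymphal skin, in 3 libraries per age, and the labels name no treatment. All groups share tissue and sex. The labels give neither strain, nor genotype, nor whether a library pools animals or stands for 1 animal, so the spread behind each p-value may be a technical one. Whether the cluster moves as a unit through these days is the question addressed here.

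A microRNA guides the Argonaute protein to messenger RNAs, mainly through the bases of its seed near the 5′ end, and lowers their translation and stability. Members of a cluster are made from the same transcript, so their production is tied together at transcription, while cutting and stability can still set their levels apart. In Drosophila, miR-277 controls genes that break down branched-chain amino acids, miR-34 is known for a role in the ageing brain and for its link to ecdysone and juvenile hormone, and miR-317 has been tied to Toll immune signalling. In the mosquito Aedes aegypti, miR-277 acts on insulin-like peptides, lipid stores and ovary growth. The fat body is the insect organ that stores lipid and glycogen, senses amino acids and makes yolk proteins for the eggs.

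None of the 3 miRNAs had a row named after the locust, so their counts are of reads that matched the sequence of another arthropod. For miR-277, 24 of 30 arthropod rows held counts, 14 of them, dme-miR-277-3p included, with exactly the counts of that row, the one used (10514 counts in all), and all 24 had at least 99% of its total. For miR-34, 25 of 31 rows held counts, and 21 of them had at least 99% of the total of tca-miR-34-5p, the flour beetle row used (33731 counts), dme-miR-34-5p among them with 33683. For miR-317, 25 of 31 rows held counts and 6 were identical, among them tca-miR-317-3p, the row used (72258 counts). The Drosophila melanogaster row, dme-miR-317-3p, is a minor form with 1232 counts, 1.71% of the row used. The opposite arms, miR-277-5p, miR-34-3p and miR-317-5p, had 5, 6 and 6 arthropod rows and were listed at 0 in each, so the cluster is described by its other arms.

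A pair of libraries bear on what follows. Day 0 replicate 1 was the smallest once repeated rows were joined, with 385831 counts against 626809 to 2340402 in the other 11. In the table as deposited, where a miRNA counts under each of its names, its total (11418973) was above those of day 6 replicate 2 (5301757) and day 2 replicate 2 (9677668). It stood apart from the other 11, with a median correlation across miRNAs of 0.86 against 0.93 to 0.98. miR-8-3p, the most abundant miRNA over all 12, took 8.30% of the joined counts of day 0 replicate 1 against 26.9% to 58.4% elsewhere. Day 0 replicate 1 alone held 7 of the 102 miRNAs, at 100 counts or more against at most 3 in each other library, and no other library held any so. Of these, 6 were named after the silkworm moth, bmo-miR-279b-3p (731 counts), bmo-miR-31-5p (616), bmo-miR-3338-3p (547), bmo-miR-2766-3p (399), bmo-miR-306a-5p (359) and bmo-miR-308-3p (294), and the 7 together made up 0.805% of its counts. miR-989, listed as an ovary miRNA, was also found there alone, at 113 counts under a hawkmoth name (mse-miR-989). The rows of miR-34 named after the silkworm and other arthropods share nearly all counts, so the source of its reads in that library cannot be told from them. The part of these reads in the levels of the cluster was not tested. Day 6 replicate 3 correlated with the others much as the rest did (0.96), but in normalised CPM, the counts of a miRNA set against a library total that TMM factors adjust, held the highest miR-277 of the 12 libraries and the highest miR-34 and miR-317 after day 0 replicate 1. As a share of counts its miR-277 (0.0860%) came after that of day 0 replicate 2 (0.0881%). Results are given with and without day 0 replicate 1 where it matters, except where stated. For day 6 replicate 3 this was done for some results only.

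The order of abundance was miR-317 above miR-34 above miR-277. On the scale of normalised CPM their means over the 12 libraries were 4571, 2476 and 612, which ranked them 22, 25 and 36 among the 91 miRNAs tested. Reads of different miRNAs are ligated and amplified with unequal efficiency, so the order is one of reads. It held in 11 libraries. In day 0 replicate 1, miR-34 stood above miR-317. miR-277 was the lowest in each of the 12 libraries.

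**Figure D1:**
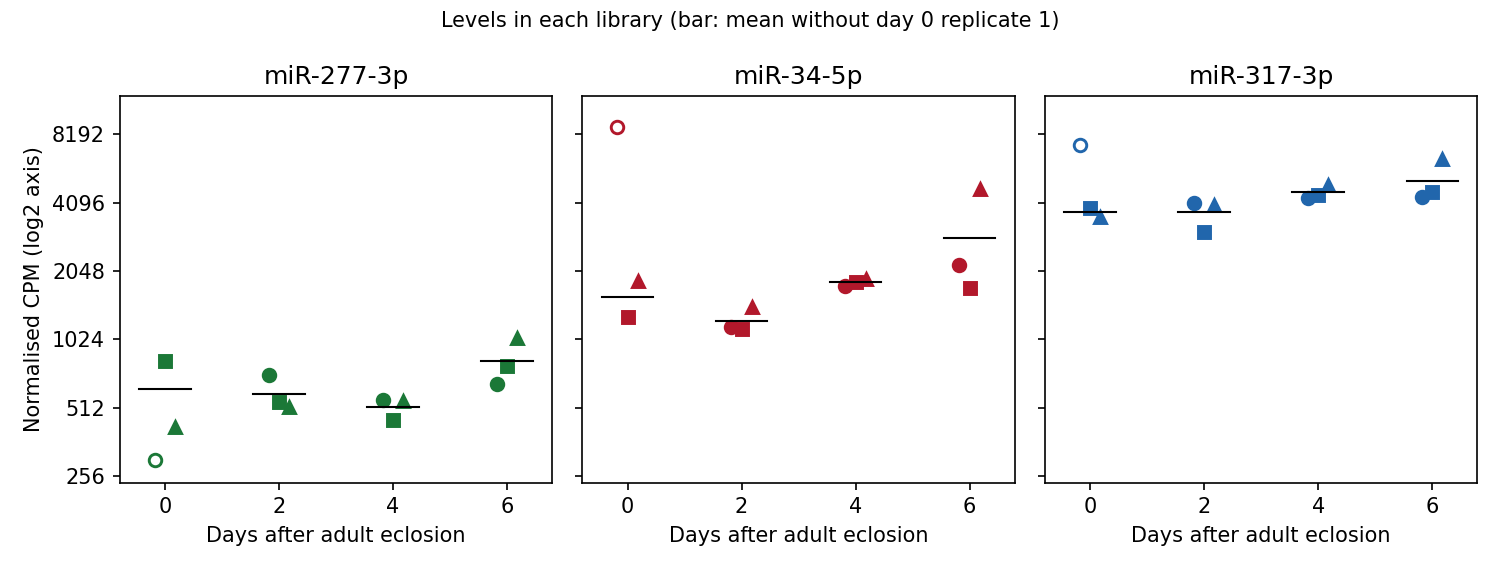
Normalised CPM (log2 axis, the same in each panel) of miR-277-3p, miR-34-5p and miR-317-3p against days after adult eclosion, with 1 point per library (circle, square and triangle for replicates 1, 2 and 3) and a bar at the mean without day 0 replicate 1, which is drawn open. At day 0 that library is the lowest for miR-277 (302 CPM) and the highest for miR-34 (8810 CPM) and miR-317 (7378 CPM), and at day 6 replicate 3 is the highest for each.

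miR-277-3p, the regulator of amino acid breakdown in flies, stood at 302, 821 and 423 normalised CPM in the day 0 libraries, at 712, 543 and 516 at day 2, at 553, 452 and 549 at day 4 and at 650, 783 and 1034 at day 6. The day 0 libraries spanned the whole range of days 2 and 4, while the 3 day 6 libraries all lay above the 3 of day 4 in normalised CPM. How many of all miRNAs or pairs separate in this way is not given, so such separations, here and below, are descriptions only. As a share of total counts the day 6 libraries did not all lie above day 4, since day 6 replicate 1 (0.0520%) lay below day 4 replicates 1 (0.0522%) and 3 (0.0535%). Its age means were 515 ± 272, 591 ± 106, 518 ± 56.9 and 822 ± 195 CPM (SD, n = 3 each). The test over the 4 ages did not call it with edgeR, called meaning an adjusted p under 0.05 (adjusted p = 0.419, and 0.295 without day 0 replicate 1), beside 28.6% and 39.1% of all tested miRNAs called. Between day 4 and day 6 the log2 change was 0.67 (SE 0.39, 95% interval -0.17 to 1.51), also not called (edgeR, adjusted p = 0.768).

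miR-34-5p, the miRNA of the fly's ageing brain, stood at 8810, 1287 and 1848 normalised CPM at day 0, at 1159, 1136 and 1424 at day 2, at 1755, 1833 and 1890 at day 4 and at 2173, 1717 and 4677 at day 6. The day 4 libraries lay close together and all above those of day 2, as did the day 6 libraries, and day 0 overlapped each later age. Age means were 3982 ± 4191, 1240 ± 160, 1826 ± 67.9 and 2856 ± 1594 CPM (SD, n = 3 each), and 1568 ± 397 at day 0 without replicate 1 (n = 2). The SD at day 0 exceeded the mean, and that at day 6 was 55.8% of it, against 3.72% at day 4. Over the 4 ages miR-34 was not called with edgeR (adjusted p = 0.181, and 0.0586 without day 0 replicate 1).

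miR-317-3p, the abundant member, stood at 7378, 3872 and 3555 normalised CPM at day 0, at 4094, 3047 and 4013 at day 2, at 4283, 4436 and 4902 at day 4 and at 4320, 4568 and 6389 at day 6. Days 4 and 6 lay above day 2 in each library, and above day 0 once its replicate 1 was set aside, in normalised CPM. As a share of total counts this separation was lost, with 0.345% in day 6 replicate 1, the lowest of the 12 libraries, and 0.405% in day 4 replicate 1, against 0.436% in day 2 replicate 3 and 0.415% in day 0 replicate 2. Age means were 4935 ± 2122, 3718 ± 582, 4540 ± 323 and 5092 ± 1129 CPM (SD, n = 3 each), with 3714 ± 224 at day 0 without replicate 1 (n = 2). It too was not called over the 4 ages (edgeR, adjusted p = 0.628, and 0.139 without day 0 replicate 1).

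Each comparison with day 0 asked whether the cluster had moved since eclosion, and the sign of many answers turned with day 0 replicate 1. None of the 3 was called at day 2, 4 or 6 with edgeR, where 15.4%, 29.7% and 41.8% of the 91 tested miRNAs were. miR-34 was at -1.68 on the log2 scale at day 2 (SE 0.63, adjusted p = 0.0834), -1.12 at day 4 (SE 0.62) and -0.48 at day 6 (SE 0.61). These values became -0.30, 0.30 and 0.90 without day 0 replicate 1, the last with SE 0.38 and an adjusted p of 0.0742 in edgeR. miR-317 went from -0.41, -0.12 and 0.05 to 0.03, 0.37 and 0.49 (the last with SE 0.21 and an adjusted p of 0.0742 in edgeR). For miR-277 the values shifted the other way, from 0.19, 0.0039 and 0.67 to -0.05, -0.19 and 0.44. Without that library none of the 3 was called either (edgeR), beside 23.9%, 37% and 45.7% of the 92 miRNAs then tested.

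All 3 members, without day 0 replicate 1, were at positive values at day 6, beside a median of 0.22 over all miRNAs. Total counts in place of TMM gave 0.11 for miR-277, 0.54 for miR-34 and 0.16 for miR-317 beside a median of -0.10. The 95% intervals in the TMM fit were -0.27 to 1.14 for miR-277, 0.06 to 1.74 for miR-34 and 0.04 to 0.95 for miR-317, before any adjustment for the number of miRNAs. With all 12 libraries the value of miR-317 at day 6 (0.05) was -0.35 with total counts and -0.12 without miR-8-3p. miR-277 at day 6 was called when day 0 replicate 2, its highest day 0 library, was left out (log2 change 1.18, edgeR adjusted p = 0.0234), in a fit that called 34 miRNAs. miR-34 at day 2 was called on the same condition (-2.10, edgeR adjusted p = 0.023, with 29 miRNAs called) and with DESeq2 on 12 libraries (-1.88, adjusted p = 0.036, with 23 called). All of these calls include day 0 replicate 1.

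**Figure D2:**
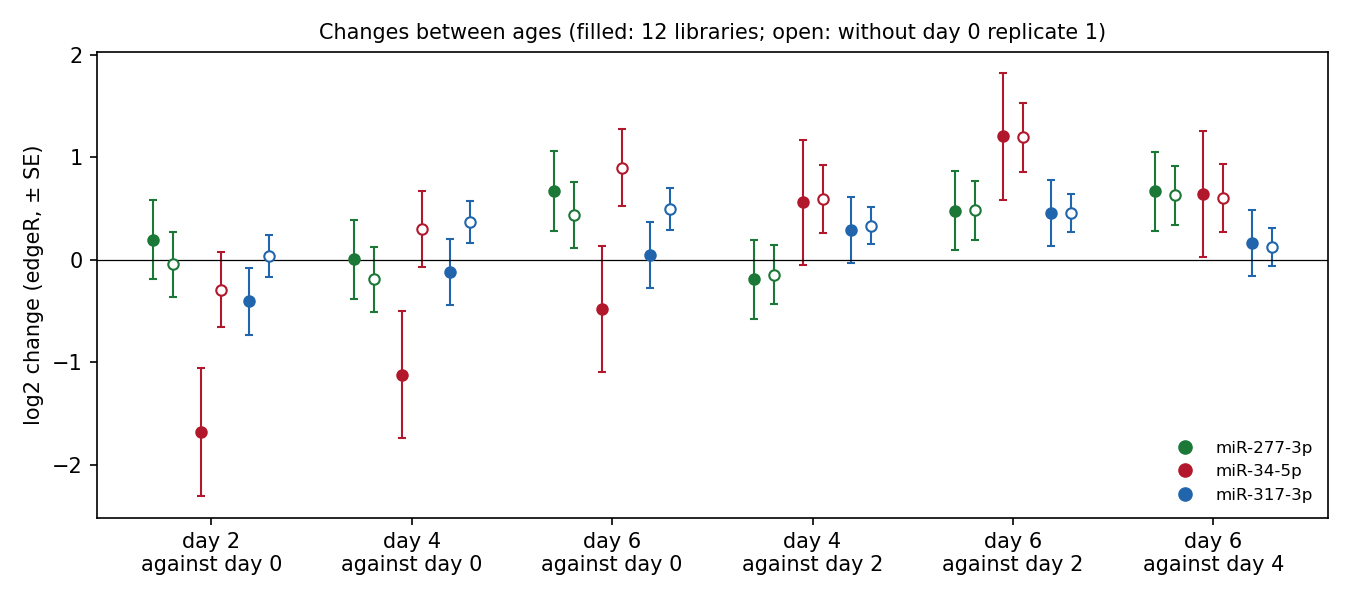
log2 change (edgeR, with its SE as the bar) of the 3 miRNAs in each comparison of ages, fitted on 12 libraries (filled) and without day 0 replicate 1 (open). For miR-34 the value at day 4 against day 0 is -1.12 filled and 0.30 open, while the log2 changes among days 2, 4 and 6 hardly differ between the fits. Their SE is smaller in the open fit, for miR-34 at day 6 against day 2 0.33 against 0.62.

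The comparisons among days 2, 4 and 6 take no mean from day 0, though day 0 enters the estimate of the spread. From day 2 to day 6 the log2 change was 1.20 for miR-34 (SE 0.62), 0.48 for miR-277 (SE 0.39) and 0.45 for miR-317 (SE 0.32), with a median of -0.07 over all miRNAs. None was called in the fit of 12 libraries (edgeR, adjusted p = 0.407, 0.597 and 0.564), where 0% of the 91 were called, with 14 at an unadjusted p under 0.05 and 4 called by DESeq2. Without day 0 replicate 1, miR-34 rose by 1.19 (SE 0.33, 95% interval 0.45 to 1.93, edgeR adjusted p = 0.0423), beside 12% of 92 miRNAs called, and was higher in each of the 3 day 6 libraries than in each of day 2. miR-277 and miR-317 were not called in that fit (0.48 and 0.46, edgeR adjusted p = 0.24 and 0.116).

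That call was lost under other choices of libraries and scaling. In a fit of days 2, 4 and 6 alone the change of miR-34 was 1.20 with an edgeR adjusted p of 0.0538, and with total counts in place of the TMM factors, without day 0 replicate 1, it was 0.88 with an adjusted p of 0.0814. With day 6 replicate 3 also left out it was 0.66, with an edgeR adjusted p of 0.0617. In normalised CPM, day 6 replicate 3 held 2.42 times the geometric mean of miR-34 in the other 2 libraries of its age. It was 1.45 times as high for miR-277 and 1.44 times for miR-317.

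Between neighbouring ages after day 0 no member was called. From day 2 to day 4, miR-34 was at 0.56 (SE 0.61), miR-317 at 0.29 (SE 0.32) and miR-277 at -0.19 (SE 0.38). All day 4 libraries lay above those of day 2 for miR-34 and miR-317 in normalised CPM, and for miR-34 alone as a share of total counts. For miR-277 the libraries overlapped. The share of all miRNAs that separate between these ages is not given. From day 4 to day 6, miR-277 was at 0.67, miR-34 at 0.65 (SE 0.61) and miR-317 at 0.17 (SE 0.32). The adjusted p of the members was at least 0.768 (edgeR, 12 libraries), and no miRNA was called in either (0%), with 5 at an unadjusted p under 0.05 in each, and 1 and 0 called by DESeq2. Again edgeR called 0 without day 0 replicate 1, with 13 and 12 at an unadjusted p under 0.05. With only day 6 replicate 3 left out, the log2 changes from day 4 to day 6 were 0.47 for miR-277, 0.09 for miR-34 and -0.03 for miR-317.

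Ratios of members within a library need no scaling factor and ask directly whether 2 members moved by the same amount. The log2 ratio of miR-277 to miR-34 was -0.65 and -2.13 in day 0 replicates 2 and 3, and averaged -1.08 ± 0.38 at day 2, -1.82 ± 0.18 at day 4 and -1.68 ± 0.53 at day 6 (SD, n = 3 each). The day 4 libraries lay below all those of day 2. Day 0 replicate 1 was at -4.86, below every other library. The log2 ratio of miR-277 to miR-317 was -2.24 and -3.07 in day 0 replicates 2 and 3 and -4.60 in replicate 1, and averaged -2.65 ± 0.26, -3.13 ± 0.17 and -2.63 ± 0.09 at days 2, 4 and 6. Day 4 lay just below day 6 in every library and overlapped day 2 by a narrow margin.

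The log2 ratio of miR-34 to miR-317 was -1.59 and -0.94 in day 0 replicates 2 and 3 and 0.26 in replicate 1. It averaged -1.58 ± 0.21 at day 2, -1.31 ± 0.05 at day 4 and -0.95 ± 0.48 at day 6 (SD, n = 3 each). All 3 day 4 libraries lay above those of day 2, and day 6 overlapped day 4.

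No ratio was called as changing over the 4 ages. In limma on the ratios of all 4095 pairs of tested miRNAs, the adjusted p was 0.56 for miR-277 to miR-34, 0.684 for miR-277 to miR-317 and 0.577 for miR-34 to miR-317, where 23.1% of pairs were called. Pairs share miRNAs and are not independent. Without day 0 replicate 1 the adjusted p in limma was 0.507, 0.49 and 0.488, with 35.8% called. An exact permutation test of each ratio over the 4 ages gave p = 0.541, 0.525 and 0.275 with 12 libraries and 0.4, 0.2 and 0.219 without day 0 replicate 1 (one-sided in F, 3 ratios, lowest adjusted p 0.328). A p that misses the threshold does not show that the members moved alike. The ratios still ranged over 1.53, 1.06 and 1.37 on the log2 scale among the 11 libraries.

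**Figure D3:**
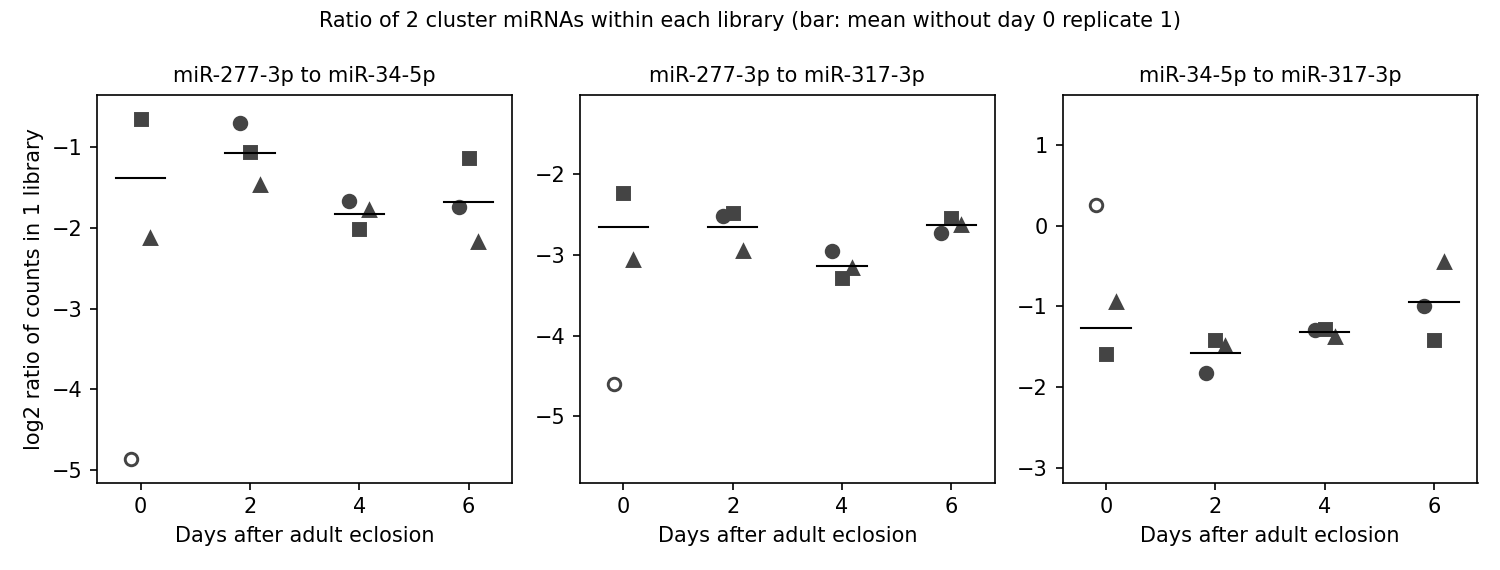
log2 ratio of the counts of 2 cluster miRNAs within each library against days after adult eclosion (circle, square and triangle for replicates 1, 2 and 3, bar at the mean without day 0 replicate 1, which is drawn open), each panel spanning the same height. Day 0 replicate 1 lies apart in each panel, at -4.86, -4.60 and 0.26, and the ratio of miR-277 to miR-34 is lower at day 4 than at day 2 in every library.

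As a share of the reads of the cluster, miR-277 made up 6.73% to 13.7% in the 11 libraries other than day 0 replicate 1 and 1.83% in that one. miR-34 made up 19.4% to 38.7% in the 11 and 53.4% there, and miR-317 52.8% to 68.6% against 44.7%. The 3 together took 0.553% to 1.01% of a library's counts in the 11, the top value in day 6 replicate 3, and 2% in day 0 replicate 1. In normalised CPM, day 0 replicate 1 was set against the geometric mean of the other 2 day 0 libraries. It held 5.71 times as much miR-34, 1.99 times as much miR-317 and 0.512 times as much miR-277. The 141 counts of miR-277 there were 0.0365% of its counts (exact 95% Clopper-Pearson interval 0.0308% to 0.0431%) against 0.0881% in day 0 replicate 2. Intervals of this kind cover counting error alone.

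Library by library, miR-34 and miR-317 were related over 12 libraries by Pearson's r, and no relation of miR-277 with either passed the adjustment. Over 12 libraries, on log2(CPM + 1), Pearson's r of miR-34 with miR-317 was 0.91 (permutation p = 3.0e-04, adjusted over the 3 pairs 9.0e-04) and Spearman's rho 0.75 (permutation p = 0.0068, adjusted 0.0204). Without day 0 replicate 1, r was 0.83 (permutation p = 0.0037, adjusted 0.0111) and rho 0.67 (permutation p = 0.0279, adjusted 0.0838). Of all 4095 pairs of tested miRNAs, 1.66% had a higher r over 12 libraries and 2.81% over the 11. Without day 0 replicate 1 and day 6 replicate 3, r was 0.60, and over the 11 without day 6 replicate 3 and day 2 replicate 2, the 2 farthest from the median of miR-34, it was 0.36. The relation thus rests on a few libraries, day 6 replicate 3 among them each time. With total counts over the 12, r was 0.91 (permutation p = 0.0018, adjusted 0.0055), but rho was 0.55 (permutation p = 0.0711, adjusted 0.149) and r without day 0 replicate 1 and day 6 replicate 3 was 0.23. Over the 11 it was 0.64 with total counts (permutation p = 0.0345, adjusted 0.103). Levels of 2 miRNAs in 1 library share its scaling factor, and libraries of 1 age share their age.

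For miR-277 with miR-317, r was -0.09 over 12 libraries (permutation p = 0.786, adjusted 0.786; rho 0.08, permutation p = 0.8, adjusted 0.8) and 0.56 without day 0 replicate 1 (permutation p = 0.0707, adjusted 0.106; rho 0.41, permutation p = 0.214, adjusted 0.32). Without day 6 replicate 3 and day 0 replicate 1, the 2 farthest from the median of miR-277, it was 0.20. Over the 11 libraries it was 0.32 once day 6 replicate 3 and day 0 replicate 2 were set aside as well. For miR-277 with miR-34, r was -0.30 over 12 libraries (permutation p = 0.341, adjusted 0.512; rho -0.20, permutation p = 0.545, adjusted 0.8) and 0.39 without day 0 replicate 1 (permutation p = 0.237, adjusted 0.237; rho 0.05, permutation p = 0.901, adjusted 0.901). Leaving out the same 2 libraries of the 12 gave -0.31, and over the 11 the value became -0.18 without day 6 replicate 3 and day 0 replicate 2. Pearson's r of miR-277 thus turned sign with day 0 replicate 1 for both partners, but rho with miR-317 did not. With total counts rho with miR-34 stayed negative (-0.50 over 12 libraries and -0.35 over the 11). On that scale, leaving day 0 replicate 2 and day 6 replicate 3 out of the 12 and of the 11 gave r of -0.70 and -0.59 with miR-34. With miR-317 it gave -0.51 and 0.12. As deviations from the age mean, over the 11 libraries, r was 0.68 for miR-34 with miR-317, 0.59 for miR-277 with miR-317 and 0.10 for miR-277 with miR-34. Over all 12 libraries these were 0.90, -0.27 and -0.53.

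**Figure D4:**
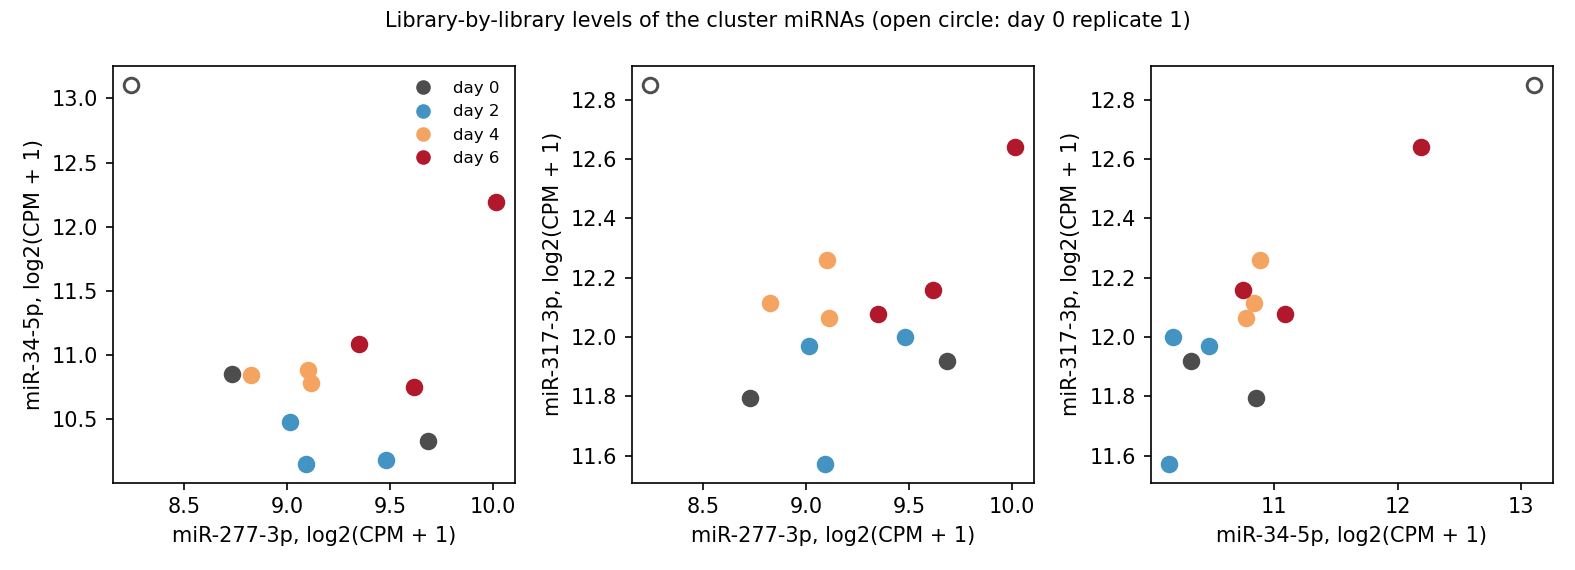
log2(CPM + 1) of 1 cluster miRNA against another, 1 point per library, coloured by age, with day 0 replicate 1 drawn open. miR-34 and miR-317 rise together to day 6 replicate 3 and day 0 replicate 1 at the upper right (r = 0.91 over 12 libraries), whereas day 0 replicate 1 lies at the upper left against miR-277.

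The miRNAs outside the cluster most like each member were found by Pearson's r over the 11 libraries, among the 90 others tested, as a description. For miR-277 they were miR-965-3p (r = 0.76), miR-13b-3p (0.63) and a miR-236 row named in a nematode (0.61), with miR-317 ranked 5 and miR-34 ranked 15. The miR-236 row held only 7 to 35 counts in each of the 11 libraries, so counting error weighs on its r. For miR-34 they were miR-1175-3p (0.89), miR-14-3p, a regulator of fat storage and ecdysone signalling in flies (0.85), and miR-279b-3p (0.84), with miR-317 ranked 4 and miR-277 ranked 19. For miR-317 they were miR-13b-3p (0.84), miR-1175-3p (0.84) and miR-9b-3p (0.80), with miR-34 ranked 3 and miR-277 ranked 16. miR-1175-3p, at 25 to 147 counts in each of the 11 libraries, was among the 3 for both miR-34 and miR-317. With day 0 replicate 1 included its r was 0.78 and 0.81, while those of miR-14-3p with miR-34 and of miR-13b-3p with miR-317 were -0.42 and -0.45. Day 6 replicate 3 is among the 11 libraries, and r without it is not given here. In raw counts that library was the highest for miR-965-3p (456), miR-14-3p (95874) and miR-1175-3p (147). In normalised CPM, the scale of r, it was the highest for each partner outside the cluster except miR-236.

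Which forms the reads matched was read from rows that hold part of the counts of the row used, and 4 such rows were picked after their values were seen, so their shares are described with no test. The aphid row api-miR-317 held most of the miR-317 counts, and less at days 4 and 6. It stood at 97.1%, 97.0% and 97.7% in the day 0 libraries, at 96.7%, 97.0% and 96.2% at day 2, at 93.7%, 95.02% and 94.4% at day 4 and at 91.2%, 92.9% and 87.9% at day 6. All day 4 libraries lay below those of day 2, and all day 6 libraries below those of day 4, while days 0 and 2 overlapped. The means were 97.2% ± 0.37, 96.7% ± 0.41, 94.4% ± 0.66 and 90.6% ± 2.58 (SD, n = 3 each). The level of miR-317 itself was not called over the same ages.

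The hawkmoth row mse-miR-34 held 57.8%, 56.9% and 56.9% of the miR-34 counts at day 0, 70.5%, 64.7% and 66.2% at day 2, 55.6%, 58.1% and 62.9% at day 4 and 64.4%, 58.1% and 59.2% at day 6. Every day 2 library lay above every other library of the 12. Day 0 replicate 1, with its high miR-34, was within 1 percentage point of the other day 0 libraries. The row hme-miR-277 held 96.5% to 99.8% of the miR-277 counts and dme-miR-317-3p 1.25% to 2.26% of those of miR-317. The first was lower in each day 0 library than in each of day 2, and the second overlapped between all ages. That separation rests on a few reads, 844 of 849 in day 0 replicate 3 against 451 of 453 in day 2 replicate 2. Taken in place of the row used, dme-miR-317-3p had log2 changes against day 0 of -0.02, 0.18 and 0.56 at days 2, 4 and 6, none called (edgeR, lowest adjusted p 0.301). What sets these rows apart in sequence was not analysed here.

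Other miRNAs with related known roles were set beside the cluster. Of 5 miRNAs known in flies for hormone response or ageing (let-7, miR-100, miR-125, miR-14 and miR-8), 3 fell and 1 rose at day 6 against day 0, with a median log2 change of -0.90 beside 0.04 over all miRNAs, of which 41.8% were called, and the same counts without day 0 replicate 1 (median -0.63 beside 0.22, with 45.7% called). In flies, ecdysone raises let-7, miR-100 and miR-125 and lowers miR-34. let-7 fell by 0.90 (SE 0.26, edgeR adjusted p = 0.016), while miR-100-5p was at -2.17 with an SE of 0.48 and miR-125-5p at -2.11 with an SE of 0.47, both called. Without day 0 replicate 1 these were -0.63, -1.25 and -1.18, all called. In the same comparison miR-34 was at -0.48 with 12 libraries and 0.90 without day 0 replicate 1. miR-14-3p was not called (1.02, SE 0.67). Of 7 miRNAs with metabolic roles, 2 of them also in the first list, 2 rose and 1 fell at day 6, miR-8-3p (1.63, SE 0.43), miR-33-5p (2.74, SE 0.71) and miR-278-3p (-2.43, SE 0.46), with a median of -0.06, a share called close to the 41.8% of all miRNAs. miR-33-5p held 1329 and 550 counts in day 6 replicates 1 and 2 but 80 in replicate 3, in normalised CPM below each day 0 library. Without day 0 replicate 1, 2 rose and 2 fell, and miR-278-3p was at -1.56. These comparisons share the day 0 libraries with those of the cluster.

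RNA of other tissues was looked for through listed miRNAs, in summed normalised CPM. The 2 muscle miRNAs, miR-1 and miR-133, summed to 355 to 3262 at day 0, 506 to 1136 at day 2, 75.2 to 248 at day 4 and 120 to 678 at day 6. The 2 arms of miR-281, abundant in the insect midgut, summed to 116 to 1511, 190 to 1100, 79.8 to 267 and 69 to 637. The neural miR-124 was at most 20.9, and of the 2 ovary miRNAs miR-309 was at 0 in all libraries. The midgut sum was highest in day 0 replicate 2 and day 2 replicate 1, the libraries with the most miR-277 at their ages. At day 4 it was highest in replicate 3, where miR-277 stood at 549 normalised CPM against 553 in replicate 1. As a share of counts miR-277 was the highest of that age there (0.0535% against 0.0522% in replicate 1). At day 6 the midgut sum was highest in replicate 2, where miR-277 was not the highest. Day 4, with the least midgut and muscle signal in its highest library, also had the least variable miR-277 and miR-34. The part of other tissues in the levels of the cluster was not tested. In bulk tissue, fewer cells of a type and less RNA per cell cannot be told apart.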

How the data were processed

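Total RNA of fat body was extracted with TRIzol and taken into Illumina libraries, per the labels' protocols. The authors deposited raw counts for 26711 mature miRNA names under 115 prefixes, unnormalised. Which aligner, mismatch setting and miRNA release were behind them is not given in the sources used here. Columns were matched to samples through their descriptions, and 0 columns belonged to other samples.

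Many names held identical counts, so rows were joined before testing. Rows with at least 120 counts were joined where they agreed in every library, within 25% plus 5 counts for the same miRNA number and within 5% plus 3 for others, which left 154 profiles. Those at a constant share of a more abundant profile (within a factor of 1.5 or 2.5 counting SDs, 1 library allowed outside) were joined to it, which left 102 miRNAs. Their counts came to 385831 to 2340402 per library.

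Tests used edgeR 4.0.16 in R 4.3.3 (TMM, filterByExpr with minimum count 10, glmQLFTest, age as a factor) on 91 miRNAs, 92 without day 0 replicate 1, with Benjamini-Hochberg adjustment. SE is the log2 change divided by the square root of F. Ratios, log2((a + 1)/(b + 1)) of counts, were tested with limma 3.58.1 over all pairs. Correlations had 100000 two-sided permutations. Alternatives were RLE factors or total counts for scaling, no filter, DESeq2 1.42.0, a replicate block, other ways of joining, other rows, a ratio pseudocount of 0.5, and leaving out miR-8-3p or libraries. The fits were tested on simulated data. Python 3.11.15, pandas 2.3.3, NumPy 2.4.6 and matplotlib 3.10.9 were also used.

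Named by rule were the 3 members, the 3 miRNAs outside the cluster with the highest r to each, and the hormone and ageing list. miR-33-5p, miR-278-3p, mse-miR-989, the silkworm-named miRNAs, the other tissue markers with values and the 4 form rows were named after their values were seen. Members and lists were chosen with earlier results of these data known.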

Additional observations from a re-analysis of the deposited data

How the results depend on the processing

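Against day 0, log2 changes of members turned sign in several settings, none of these called. With total counts miR-277 at day 4 was -0.19 and miR-317 at day 6 was -0.35. Without miR-8-3p miR-317 was -0.12 at day 6, and -0.032 at day 6 against day 4. miR-317 at day 4 was 0.095 with no filter, 0.077 with 1 row per arthropod name, 0.45 with all rows and 0.18 with the Drosophila rows, where miR-277 at day 4 was -0.00028. With all rows miR-317 was 0.11 at day 2 and miR-34 was 0.25 at day 6. DESeq2 called miR-34 at day 2 (-1.88). The cause was not tested. Total counts moved the median over all miRNAs from 0.04 to -0.34 at day 6 against day 0 and from -0.07 to -0.36 at day 6 against day 2. Relative to it, miR-277, miR-34 and miR-317 were at 0.68, -0.61 and -0.01 in the first (TMM 0.63, -0.52 and 0.0047) and at 0.55, 1.24 and 0.52 in the second (TMM 0.55, 1.27 and 0.52).

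The count called over the 4 ages (26) was 17 with no filter, 40 with 1 row per arthropod name and 347 with all rows. At day 2 against day 0 (14) it was 8 with no filter, 23 with DESeq2 and 232 with all rows, at day 4 (27) 44 with 1 row per arthropod name and 346 with all rows, and at day 6 (38) 426 with all rows. With all rows a miRNA counts once under each of its names. At day 4 against day 2 (0) it was 1 with DESeq2 and 1 with days 2, 4 and 6 alone. At day 6 against day 2 (0) it was 4 with total counts, 1 with no filter, 4 with DESeq2, 3 with 1 row per arthropod name, 1 without miR-8-3p, 9 with days 2, 4 and 6 alone and 13 with both day 0 replicate 1 and day 6 replicate 3 left out. The last 2 settings and the Drosophila rows were added after seeing the data.

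Same-numbered libraries did not deviate together (18 pairs, r -0.69 to 0.37, 7 over 0.1, and 3 of 12 libraries correlated best with their own number). So few pairs cannot exclude a pairing or a shared batch. The numbers are those of the titles. In the descriptions, day 0 replicate 1 carries another number than replicate 1 of the later ages. With the replicate block 15 miRNAs were called over the 4 ages and no member's call changed.

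Leaving out each library in turn, the log2 change against day 0 ranged from -0.046 to 0.70 at day 2, -0.19 to 0.51 at day 4 and 0.44 to 1.18 at day 6 for miR-277. It ranged from -2.10 to -0.30, -1.54 to 0.30 and -1.03 to 0.90 for miR-34, and from -0.60 to 0.035, -0.31 to 0.37 and -0.15 to 0.49 for miR-317. At day 6 against day 2 miR-34 ranged from 0.65 to 1.45, and miR-317 at day 6 against day 4 from -0.031 to 0.22. Counts called ranged from 13 to 36 over the ages, 0 to 29 at day 2, 13 to 34 at day 4 and 24 to 42 at day 6 against day 0, 0 to 1 at day 4 and 0 to 11 at day 6 against day 2, and stayed at 0 at day 6 against day 4. The r of miR-277 was 0.39 with miR-34 and 0.56 with miR-317 without day 0 replicate 1. Day 0 replicate 1 held 141 counts of miR-277, which limits its precision there.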
